A study of Mus musculus with 4 samples.

Results

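Replication-dependent histone genes encode the bulk of the proteins that wrap newly made DNA. The genes were chosen by name alone, as every gene whose older mouse symbol starts with Hist1h, Hist2h, Hist3h or Hist4h, and 70 of the 33924 gene symbols in the count files met this rule. The letters after the cluster number give the class, and by them the 70 genes comprised 6 linker (H1), 20 H2A, 19 H2B, 12 H3 and 13 H4 genes. By chromosomal cluster, 56 belonged to Hist1 on chromosome 13, 10 to Hist2 on chromosome 3, 3 to Hist3 on chromosome 11 and 1 to Hist4 on chromosome 6.

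The series compared RNA-seq of bone marrow cells from wild-type (WT) C57Bl/6 mice that were 3 months (mature) or 24 months (elderly) old, with 2 libraries of each age. No transgene or treatment was used, and the groups were defined by the age of the mice. Whether anything else differed between them cannot be told here. The methods of the study describe pooling the RNA of 3 or 4 mice in each group, whereas each sample title names a single numbered mouse. Whether an SD over n = 2 is the spread between pools or between animals cannot be told from these. The labels name whole marrow as the source, whereas the methods of the study describe cells sorted as Lin- LEPR+, that is, without the Ter119, CD31 and CD45 surface markers and with the leptin receptor. In the counts, the stromal markers Lepr (6011 ± 529 CPM in mature and 4947 ± 1188 CPM in elderly libraries, SD, n = 2) and Cxcl12 (12650 ± 1400 and 8263 ± 1528 CPM) were abundant, where CPM stands for counts scaled to a common library size with the TMM factors of edgeR.

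Histone genes of this kind are transcribed together when a cell enters S phase, so that a proliferating cell can package its copied DNA. H2A, H2B, H3 and H4 form the core around which DNA is wound, and H1 binds the linker between cores. Unlike other mRNAs of animal cells, their transcripts normally end in a short conserved stem-loop instead of a poly(A) tail. The stem-loop is bound by SLBP, and the cut behind it is guided by the U7 snRNP. The labels give poly(A) RNA for all 4 libraries, so the counts below are of the histone RNA that such a selection recovered, and how much of it carried a tail was not tested. The methods of the study exempt from that selection samples they call 14wk AMB and HU MSC, which were prepared from total RNA. Neither name is in the labels, so whether the mature libraries were among them cannot be told here. In bulk RNA, fewer cells of a type and less RNA per cell cannot be told apart.

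The 3′ stem-loop was located in the genome of the files' own build (NCBI Build 37, mm9), as a stem of 6 base pairs that starts with GG and a loop of 4 bases with T at the first and the third base, within 120 bases after the stop codon. It was found in 63 of the 67 members with an annotated stop codon (94.0%) and in 10 of 21736 other protein-coding genes (0.046%). The 10 sites shown here were picked to cover every class and cluster, and genes that rose with age as well as genes that did not. Each is given 5′ to 3′ on the strand of its gene, with 5 flanking bases on either side and the stem-loop in capitals.
Hist1h1c (chr13:23831376-23831401, + strand): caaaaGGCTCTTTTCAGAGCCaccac
Hist1h2ae (chr13:23662532-23662557, - strand): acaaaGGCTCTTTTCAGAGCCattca
Hist3h2a (chr11:58768669-58768694, + strand): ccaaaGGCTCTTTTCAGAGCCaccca
Hist1h2bc (chr13:23776511-23776536, + strand): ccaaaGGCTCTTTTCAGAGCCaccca
Hist1h2bj (chr13:22135502-22135527, + strand): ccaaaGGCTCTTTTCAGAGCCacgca
Hist1h3e (chr13:23653767-23653792, - strand): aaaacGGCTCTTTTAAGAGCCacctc
Hist2h3c1 (chr3:96051245-96051270, + strand): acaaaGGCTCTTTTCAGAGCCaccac
Hist1h4d (chr13:23673814-23673839, + strand): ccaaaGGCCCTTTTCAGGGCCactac
Hist2h4 (chr3:96066857-96066882, - strand): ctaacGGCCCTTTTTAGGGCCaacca
Hist4h4 (chr6:136752514-136752539, - strand): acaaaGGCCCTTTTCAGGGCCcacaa

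The stem differed by class. All 50 stem-loops of H1, H2A, H2B and H3 genes began with GGCT, whereas the 13 of H4 genes began with GGCC (11 genes) or GGTC (2 genes). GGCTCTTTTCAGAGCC was the commonest form, in 39 members, and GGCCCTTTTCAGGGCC was the commonest among H4 genes, in 8. Hist1h2al, Hist1h2an, Hist2h2bb and Hist2h2be held no such letters in the window searched. Hist3h2a and Hist1h2bc carried the same 26 bases as each other, and neither passed the test between ages, whereas Hist1h2bj, with the same stem-loop in a slightly different flank, was higher in elderly libraries (values below).

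Histone RNA took a larger share of the elderly libraries. Members held 11668 and 7706 counts in the mature libraries, which is 0.0978% (95% Wilson interval 0.0960 to 0.0996) and 0.0657% (0.0642 to 0.0672) of all counts. In the elderly libraries they held 26179 and 25298 counts, or 0.250% (0.247 to 0.253) and 0.162% (0.160 to 0.164). The intervals cover counting error only, and the spread between libraries of 1 age was far wider. Scaled by library, the sum was 833 ± 243 CPM in mature and 2010 ± 483 CPM in elderly libraries (SD, n = 2), a 2.42-fold higher mean, and the age groups did not overlap.

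Of the 70 members, 67 had a count and 64 had more than 2 counts in all and were tested. By the quasi-likelihood test of edgeR, with p-values of 21340 genes adjusted by Benjamini-Hochberg, 35 of the 64 rose with age and 0 fell (call at an adjusted p under 0.05). Among all genes tested, 2.28% were called higher and 0.45% lower. No member was lower even at an unadjusted p under 0.05, by that test, by DESeq2 or by the exact test of edgeR. The lowest elderly CPM exceeded the highest mature CPM for 53 of the 64 members, against 22.9% of all genes tested, and the reverse held for 1 member, Hist3h2a. The median log2 fold change of the 64 members was 1.75 (range -0.44 to 3.74), and that of all genes tested was 0.02.

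The number of calls rested on both elderly libraries. Without elderly replicate 1, 1 member was called higher (40 genes called in all), and without elderly replicate 2 edgeR's test called 0 members and 0 genes in all, with 36 members higher at an unadjusted p under 0.05 and a median log2 fold change of 2.06. Leaving out a mature library moved the calls among members and among all genes. The median log2 fold change of tested members was 2.17 without mature replicate 1 and 1.39 without mature replicate 2, against 1.75 with all libraries. With the exact test at a dispersion of 0.2, 9 members were called, all of them among the 35. The exact test called 233 genes in all, against 583 by the quasi-likelihood test. Of the 15 called members that the rule for named genes picks, the exact test kept 5 (Hist1h2ab, Hist1h3e, Hist2h3b, Hist3h2ba and Hist3h2bb-ps), DESeq2 12 and edgeR's robust fit 9. Without mature replicate 2, Hist1h1b, Hist1h1e, Hist1h2bg, Hist2h2bb, Hist1h4d and Hist1h4h lost their calls, and without elderly replicate 1 Hist1h3e alone kept its call.

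**Figure D1:**
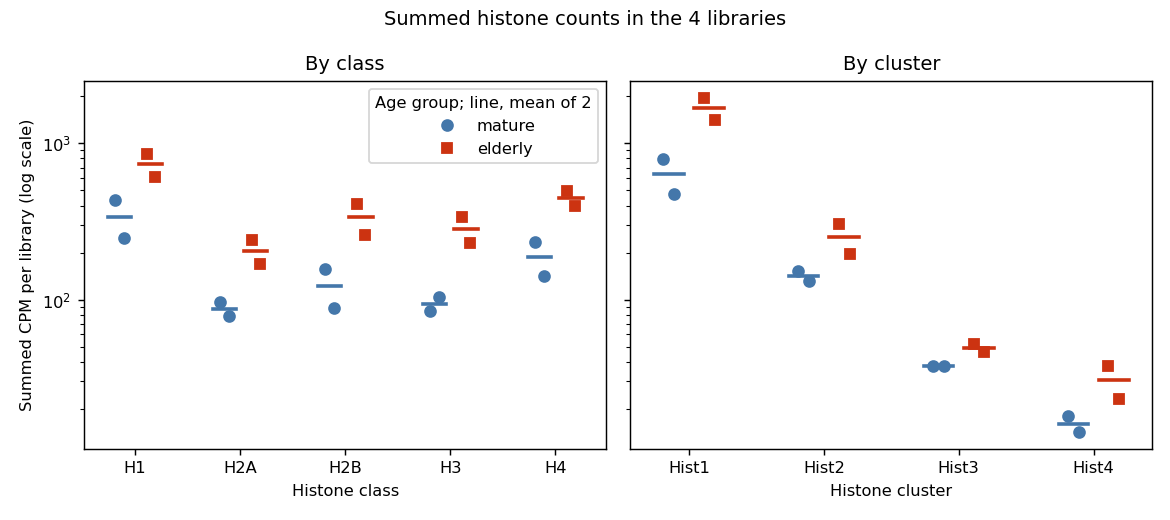
Summed histone counts of each class (left) and cluster (right) in CPM on a log axis, with 1 point per library and a line at the mean of 2. In all 5 classes and all 4 clusters both elderly libraries lie above both mature libraries, by the widest ratio for H3 and Hist1 and the narrowest for H1 and Hist3.

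All 5 classes were higher in the elderly libraries when their counts were summed, with no test made on sums. H1 genes summed to 433 and 248 CPM in mature and 861 and 612 CPM in elderly libraries, a log2 ratio of means of 1.11. H2A genes summed to 96.1 and 78.6 CPM, and to 241 and 169 CPM, a log2 ratio of 1.23. H2B genes summed to 156 and 88.7 CPM, and to 412 and 261 CPM, a log2 ratio of 1.46. In each of these classes the lowest elderly sum exceeded the highest mature one. H3 genes summed to 84.5 and 104 CPM, and to 340 and 230 CPM, which gave the highest log2 ratio, 1.59. H4 genes summed to 235 and 141 CPM, and to 498 and 398 CPM, a log2 ratio of 1.25. Mature replicate 2 was the lowest library for every class but H3, for which mature replicate 1 was lowest.

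The make-up of histone RNA by class moved less than its amount. H1 genes held 40.3 ± 3.92% of the histone counts in mature and 36.6 ± 0.0292% in elderly libraries, H4 genes 22.4 ± 1.44% and 22.5 ± 1.87%, and H2A genes 10.7 ± 1.65% and 10.2 ± 0.0693%. H2B genes held 14.5 ± 1.51% and 16.6 ± 1.34% and H3 genes 12.1 ± 5.22% and 14.1 ± 0.488%. The ages overlapped for H2A, H3 and H4, and did not for H1 and, narrowly, for H2B. By cluster, the share of Hist1 was 79.3% and 72.2% in mature and 83.2% and 84.2% in elderly libraries, and that of Hist2 was 15.2% and 19.9% against 13.0% and 11.7%. For Hist1 and Hist2 the ages did not overlap.

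**Figure D2:**
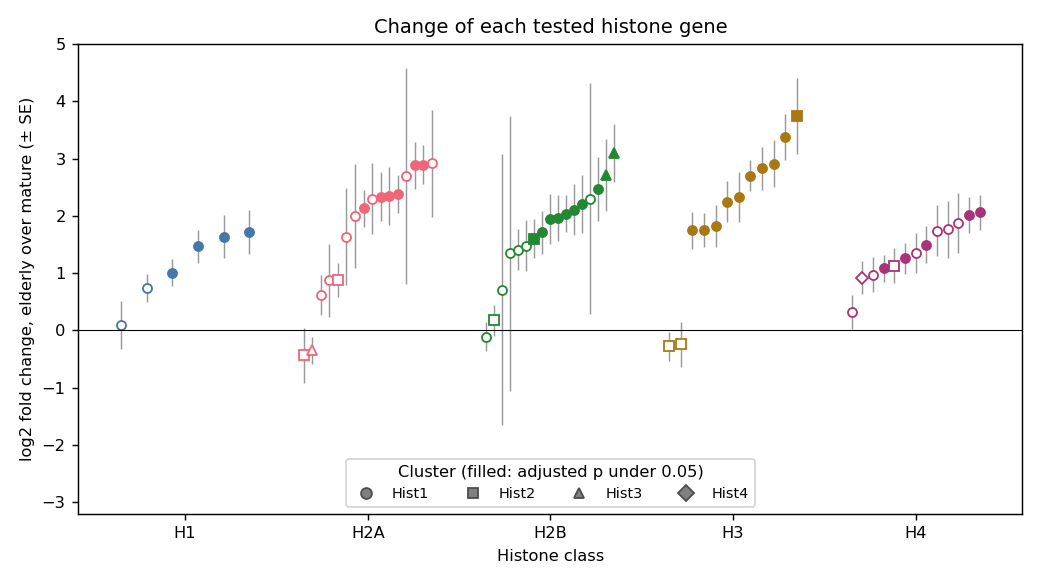
Log2 fold change of each of the 64 tested histone genes, elderly over mature, with its standard error, ordered within class. Symbols give the cluster, and filled symbols mark the 35 genes with an adjusted p under 0.05, none of which lies below 0. Genes with almost no mature counts have the widest intervals.

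Linker histones had the highest summed CPM of the classes. Summed per kilobase of countable exon, H4 genes stood above H1 genes, at 408 against 303 CPM per kb in mature and 1004 against 688 in elderly libraries. H1 proteins compact chromatin by binding between nucleosomes, and 4 of the 6 H1 genes rose. Hist1h1c, the H1 gene with the most counts, had 2358 and 1355 counts in mature and 3044 and 3928 in elderly libraries, a log2 fold change of 0.74 ± 0.25 (SE) with an adjusted p of 0.19. Hist1h1e, with 957 and 669 counts against 1794 and 1821, rose by a log2 fold change of 1.01 ± 0.24 (adjusted p = 0.039). Hist1h1b had 578 and 212 counts against 1586 and 1244 and rose the most of the class, by 1.72 ± 0.39 on the log2 scale (adjusted p = 0.031), but was not called by DESeq2 (adjusted p = 0.29), by the robust fit of edgeR (0.62) or without mature replicate 2 (0.061). In all 3 genes both elderly libraries were above both mature ones in CPM. Hist1h1a (log2 fold change 1.64) and Hist1h1d (1.47) also rose. Hist1h1t, the testis linker histone, had 42 and 68 counts against 73 and 54, and the ages overlapped (log2 fold change 0.09 ± 0.42). Per kilobase of countable exon, the 3 highest mature levels of the class were those of Hist1h1c (102 CPM per kb), Hist1h1e (93.4) and Hist1h1a (46.7). The elderly levels were 188 for Hist1h1e and 171 for Hist1h1c, a difference that was not tested.

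H2A and H2B dimerize and flank the H3-H4 tetramer in the nucleosome. Of 16 H2A genes tested, 6 rose, and of 17 H2B genes tested, 10 rose. Hist1h2ab rose most among H2A genes with a mean of at least 1 CPM, with 27 and 30 counts in mature against 242 and 226 in elderly libraries (log2 fold change 2.90 ± 0.34, adjusted p = 0.00095). Hist1h2ae had 102 and 22 counts against 379 and 313 (2.35 ± 0.51, adjusted p = 0.026), with widely spaced mature libraries, but the call was lost with DESeq2 (adjusted p = 0.25) and the robust fit (0.53). None of the 3 tested H2A genes outside Hist1 passed the threshold. Hist2h2ac had 166 and 155 counts against 353 and 291 (0.88 ± 0.29, adjusted p = 0.19). Hist3h2a, the H2A gene with the most counts, had 383 and 432 counts against 290 and 439 and was lower in both elderly libraries in CPM, but did not pass the test (-0.35 ± 0.23, adjusted p = 0.67). Hist2h2aa2 had 37 and 47 counts against 41 and 26, with overlapping ages (-0.44 ± 0.48).

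Among H2B genes, Hist2h2bb had the most counts, 431 and 227 in mature against 1256 and 890 in elderly libraries (1.60 ± 0.34, adjusted p = 0.024, and 0.16 with the robust fit). Hist1h2bg, with 218 and 94 counts against 624 and 487, and Hist1h2bj, with 173 and 53 against 597 and 462, rose by 1.71 and 2.11 on the log2 scale (adjusted p = 0.028 and 0.022). Neither was called by the robust fit (adjusted p = 0.072 and 0.48), and Hist1h2bj was not called by DESeq2 (0.19). Hist3h2ba, a minor H2B gene, had 26 and 6 counts against 145 and 162 and the highest log2 fold change of its class among genes of at least 1 CPM (3.10 ± 0.51, adjusted p = 0.0056). Hist3h2bb-ps, annotated as a pseudogene, had 30 and 4 counts against 146 and 96 (2.72 ± 0.63, adjusted p = 0.037, and 0.16 with the robust fit). Each of these had elderly libraries above mature ones. Hist1h2bc did not change beyond its error, with 298 and 277 counts against 278 and 318 (-0.11 ± 0.25, adjusted p = 0.94), nor did Hist2h2be, with 142 and 165 against 174 and 216 (0.18 ± 0.27, adjusted p = 0.90). Hist1h2bc had the highest mature level per kilobase of all H2B genes (33.6 CPM per kb), and in elderly libraries its level (31.2) was below those of Hist1h2bj (90.8), Hist1h2bg (71.4) and Hist1h2bb (65.4).

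H3 carries the tail residues on which many chromatin marks sit, and 10 of the 12 H3 genes rose. All 9 H3 genes of Hist1 rose, with log2 fold changes from 1.74 to 3.38 (median 2.33). Their sum was 46.7 and 47.4 CPM in mature and 293 and 192 CPM in elderly libraries, a 5.15-fold higher mean. Hist1h3e had 134 and 164 counts against 1135 and 979, and its log2 fold change of 2.70 ± 0.27 had the smallest adjusted p of all members (0.0003). Of the read-length windows in its countable exons, 20.3% were unique in the genome, so its counts may include reads of other copies. Hist1h3a had 149 and 78 counts against 512 and 351 (1.82 ± 0.37, adjusted p = 0.020), and Hist1h3b had 10 and 21 against 164 and 200 (3.38 ± 0.40, adjusted p = 0.00097).

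The Hist2 H3 genes summed to 47.4 ± 13.5 CPM in mature and 42.7 ± 6.78 CPM in elderly libraries. Most of that came from Hist2h3c1, with 371 and 519 counts against 396 and 419 (-0.28 ± 0.25, adjusted p = 0.77), and Hist2h3c2, annotated as a pseudogene, with 65 and 143 against 101 and 92 (-0.24 ± 0.39, adjusted p = 0.91). In both genes the ages overlapped. The remaining one, Hist2h3b, was scarce, with 4 and 2 counts against 32 and 64, and had the highest log2 fold change of all members (3.74 ± 0.66, adjusted p = 0.0090). Its read-length windows were unique in the genome in 19.8% of cases, so its counts may also include reads of other copies. Near-equal mean sums of Hist1 and Hist2 H3 RNA in mature libraries (47.0 and 47.4 CPM) thus stood beside 242 and 42.7 CPM in elderly ones. Per kilobase, Hist2h3c1 (20.7 CPM per kb) and Hist2h3c2 (19.2) had the highest mature levels of the class, and Hist1h3e (99.6) the highest elderly level. Unique windows made up 69.1% for Hist2h3c1 and 89.1% for Hist2h3c2. Among Hist1 H3 genes they made up 73.7% for Hist1h3d and 60.5% for Hist1h3f, and 20.3% to 48.6% for the others. Hist1h3d and Hist1h3f rose as well, by 2.329 and 1.755 on the log2 scale. The difference in change between clusters was not tested, nor was the part that reads shared between copies had in it.

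H4, the most conserved core histone, is encoded by genes whose proteins are identical or nearly so. All 13 H4 genes had positive log2 fold changes (0.33 to 2.06) and 5 rose. Hist1h4d, the most abundant H4 gene per kilobase (105 CPM per kb in mature and 223 in elderly libraries), had 577 and 386 counts against 1010 and 1282 (1.08 ± 0.24, adjusted p = 0.027). Hist1h4h, with 354 and 217 against 717 and 802, rose by 1.26 (adjusted p = 0.024), and Hist1h4f, with 168 and 91 against 563 and 643, by 2.06 (adjusted p = 0.0029). In these 3 genes the lowest elderly count exceeded the highest mature count. Hist2h4, with 557 and 273 counts against 1038 and 960, missed the threshold (1.13 ± 0.31, adjusted p = 0.086), as did Hist4h4, the sole Hist4 gene, with 209 and 166 against 421 and 352 (0.92 ± 0.29, adjusted p = 0.15). Hist1h4a had 185 and 135 counts against 223 and 220, with overlapping ages in CPM (0.33 ± 0.29, adjusted p = 0.76).

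By cluster, 31 of 52 tested Hist1 genes rose (median log2 fold change 1.85), 2 of 8 Hist2 genes (0.53), 2 of 3 Hist3 genes and 0 of 1 Hist4 gene. The Hist1 sum was 637 ± 225 CPM in mature and 1681 ± 391 CPM in elderly libraries (log2 ratio 1.40), the Hist2 sum 142 ± 15.1 and 250 ± 77.5 CPM (0.82), the Hist3 sum 37.9 ± 0.0832 and 49.1 ± 4.39 CPM (0.38) and Hist4 16.1 ± 2.65 and 30.5 ± 10.3 CPM (0.92). The Hist3 sum is dominated by Hist3h2a, and without it the log2 ratio was 2.93. With a single gene in Hist4 and 3 in Hist3, the clusters differ in how much they can show.

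**Figure D3:**
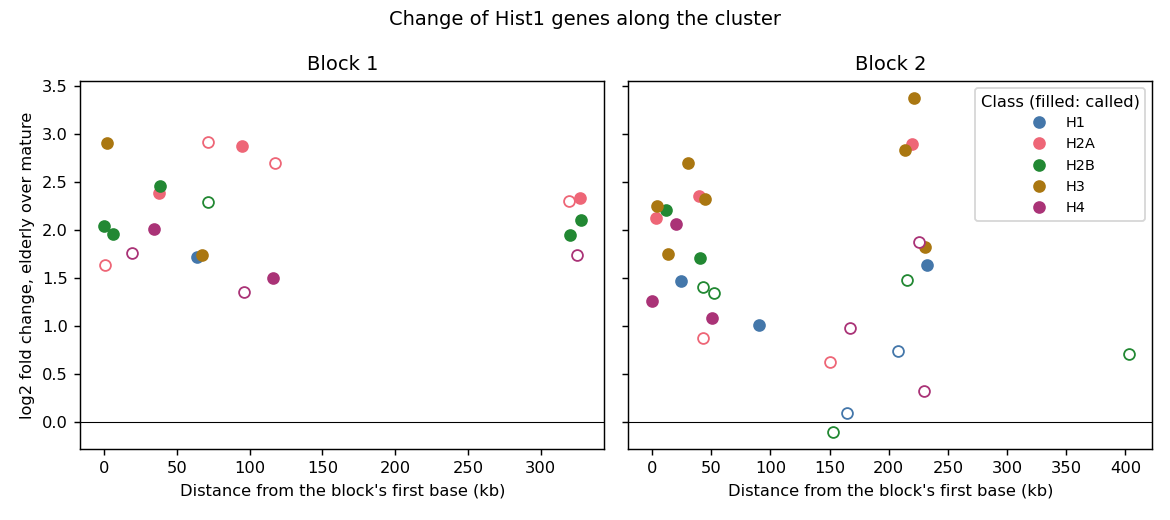
Log2 fold change, elderly over mature, of the tested Hist1 genes against the distance in kb from the first base of each of the 2 main blocks of the cluster, coloured by class and filled where called. All tested block 1 genes lie at 1.35 or above, whereas block 2 spans -0.11 to 3.38.

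Hist1 lies on chromosome 13 in 2 main blocks (split wherever neighbours were over 1 Mb apart), with Hist1h2al alone elsewhere. Block 1, from Hist1h2bl to Hist1h2bj (chr13:21807632-22135545), held 24 members, of which 21 were tested and 13 rose, with log2 fold changes from 1.35 to 2.92. Its sum was 141 and 67.8 CPM in mature and 476 and 332 CPM in elderly libraries. Block 2, from Hist1h4h to Hist1h2aa (chr13:23622919-24026720), held 31 members, of which 30 were tested and 18 rose, with a range from -0.11 to 3.38. All tested block 1 genes and 23 of the 30 in block 2 had both elderly libraries above both mature ones. In the middle of block 2, Hist1h2ac, Hist1h2bc, Hist1h1t, Hist1h4c and Hist1h1c followed each other without a call.

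Many H2A and H2B genes stand head to head and share 1 promoter stretch. There were 13 such pairs with start sites at most 500 bases apart, and in 9 both genes were tested and had more than 3 counts in a mature library. Both rose in 3 pairs, 1 of the 2 in 3 pairs and neither in 3 pairs. The log2 fold changes of partners lay under 1 apart in 8 of the 9 pairs (median difference 0.53), and those of the other 72 combinations of an H2A with an H2B gene from these pairs did so in 39 (median 0.96), which is a description without a test. The exception was Hist3h2bb-ps and Hist3h2a, 3.06 apart, with 172 bases between them. The shared stretches are shown for a pair that rose together (Hist1h2ak, log2 fold change 2.38, and Hist1h2bn, 2.46), a pair in which neither gene was called (Hist1h2ac, 0.62, and Hist1h2bc, -0.11) and the pair that diverged. Each is the + strand of NCBI Build 37, from the start of the left gene, which reads leftwards, to that of the right gene. Capitals mark the octamer ATTTGCAT, the TATA letters TATAAA and the CCAAT box CCAAT, each on either strand, and none of them overlaps another here.
Hist1h2ak and Hist1h2bn (chr13:21845777-21845991): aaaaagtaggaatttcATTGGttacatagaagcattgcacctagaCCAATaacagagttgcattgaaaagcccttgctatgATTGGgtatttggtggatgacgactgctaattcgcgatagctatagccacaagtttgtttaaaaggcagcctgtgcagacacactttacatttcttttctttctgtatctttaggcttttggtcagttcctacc
Hist1h2ac and Hist1h2bc (chr13:23775818-23776067): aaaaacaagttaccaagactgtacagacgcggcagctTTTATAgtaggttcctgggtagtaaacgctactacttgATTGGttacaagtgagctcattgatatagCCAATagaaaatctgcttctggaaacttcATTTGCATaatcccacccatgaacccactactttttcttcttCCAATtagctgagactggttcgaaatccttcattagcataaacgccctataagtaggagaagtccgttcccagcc
Hist3h2bb-ps and Hist3h2a (chr11:58768015-58768186): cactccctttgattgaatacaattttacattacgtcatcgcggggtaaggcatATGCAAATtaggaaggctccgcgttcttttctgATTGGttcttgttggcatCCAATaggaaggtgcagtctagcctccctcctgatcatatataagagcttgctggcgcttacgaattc

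The octamer is the site known for the POU factor OCT1 in histone H2B promoters. In RefSeq promoters of GRCm38.p6 (250 bases before to 50 after the start), matched for 61 members, the exact octamer was present in 7 of 17 H2A and 7 of 16 H2B genes, in no H1, H3 or H4 gene, and in 1.97% of 27025 genes. CCAAT stood in the window of every matched H1, H2A, H2B and H3 gene but of 3 of 12 H4 genes, against 41.1% of all genes. TATAAA stood in 57.4% of members and 15.7% of all genes. Of 13 tested H2A and H2B genes with the octamer 6 rose (median log2 fold change 1.60), and of 15 without it 9 rose (2.21). The summed CPM was 2.40-fold higher in elderly libraries with the octamer and 4.30-fold higher without it, a difference that was not tested.

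**Figure D4:**
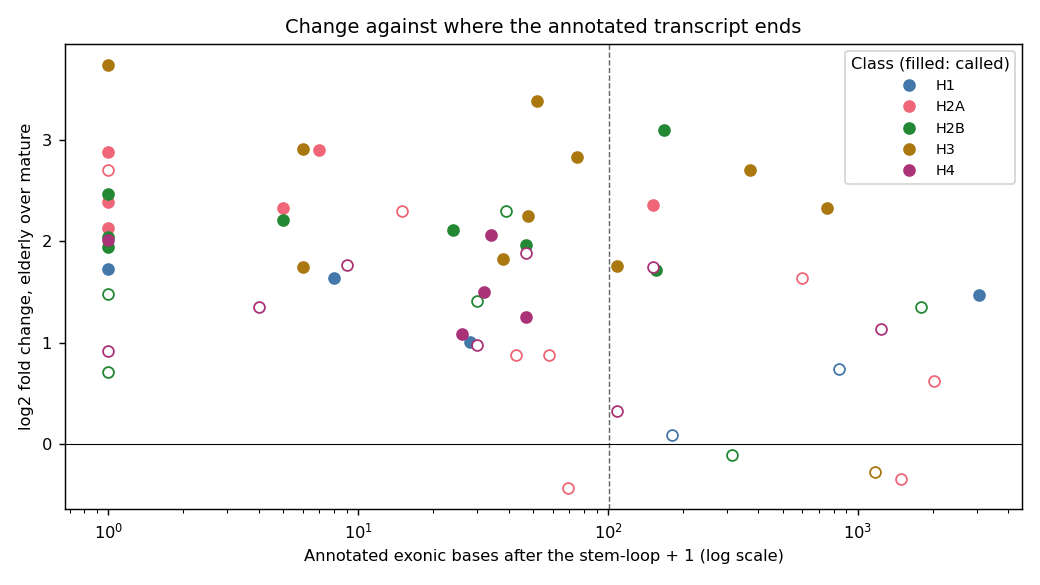
Log2 fold change, elderly over mature, of tested histone genes with a stem-loop, against the number of annotated exonic bases after it plus 1 (log axis), coloured by class and filled where called. Points at 1 are gene models that end before the end of the stem-loop. Left of the dashed line at 100 bases 26 of 40 genes are called, and right of it 7 of 18, where most values near or below 0 lie.

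Where the annotated transcript ends relative to the stem-loop went along with the size of the change. A gene model that runs on past the stem-loop describes a longer RNA, of the sort that is cut and polyadenylated further downstream. In 43 members the annotation held at most 100 exonic bases after the stem-loop, and in 20 it ran further. Of the 43, 15 gene models, such as those of Hist1h1b and Hist4h4, ended before the end of the stem-loop, and 28 ended 1 to 100 bases after it. Of the former, 40 were tested and 26 rose (median log2 fold change 1.95), and their sum was 378 ± 137 CPM in mature and 1116 ± 293 CPM in elderly libraries. Of the latter, 18 were tested and 7 rose (1.41), with a sum of 403 ± 97.7 and 774 ± 142 CPM. Within the near set, 9 of 13 tested models that end before the end of the stem-loop rose (median 2.04) and 17 of 27 that end after it (1.82). The sums of the near and the longer set were thus near each other in mature libraries and 2.95-fold and 1.92-fold higher in elderly ones. The median was higher in the near set in every class, at 1.64 against 0.74 for H1, 2.32 against 1.13 for H2A, 2.00 against 1.53 for H2B, 2.83 against 2.04 for H3 and 1.43 against 1.13 for H4. Hist1h3c, with 74 bases after the stem-loop, was the nearest member inside the threshold, and Hist1h3f and Hist1h4a, with 108 each, were the nearest outside it. Most tested members of the near set had under 50% unique windows, whereas of the tested longer ones Hist1h2bc, Hist1h2bg and Hist1h3e did. Over all tested members, the median log2 fold change was 2.11 under 50% and 1.36 at 50% or more. The difference between the near and the longer set was not tested, nor was the part that reads shared between copies had in it.

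A poly(A) signal (AATAAA or ATTAAA) in the last 50 genomic bases of a gene model marked many of the same genes, with exceptions. Hist1h1d, Hist1h2ac, Hist1h2bg, Hist1h3d, Hist1h3e and Hist1h3f ran further past the stem-loop without the signal, and all of them but Hist1h2ac rose. Hist1h2bp, Hist1h4h and Hist2h2be had the signal outside the longer set. The signal was present in 17 of 70 members (24.3%) and in 71.6% of 22171 other protein-coding genes. Of 15 tested members with the signal 3 rose (Hist1h2ae, Hist1h4h and Hist3h2ba; median log2 fold change 1.13), and of 49 without it 32 rose (1.95). The 17 include Hist1h1c, Hist1h1t, Hist1h2bc, Hist1h4a, Hist2h2be, Hist2h3c1 and Hist3h2a, none of which passed the test between ages. Their sum was 417 and 301 CPM in mature and 619 and 523 CPM in elderly libraries, a 1.59-fold higher mean, against 588 and 360, and 1733 and 1146 CPM, or 3.04-fold, for the members without the signal. Of the tested members with the signal, Hist1h2bc alone had under 50% unique windows, whereas most of those without it did. The part of reads shared between copies in this contrast was not tested. This split was made after the values of single genes had been seen.

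Near-identical gene copies limit what single members can show. Of the 40-base windows in their countable exons, at least 50% were unique in the genome for 33 members, and under 50% for 31. Of 32 tested members in the first set 14 rose (median log2 fold change 1.36), and of 31 in the second 21 rose (2.11), so calls in the second set may share reads between copies. Hist1h2ao, Hist1h2ap and Hist2h2aa2 had no unique window and still had counts, so their values are uncertain. In 6 members (Hist1h2aj, Hist1h2be, Hist1h2bq, Hist1h2br, Hist2h2aa1 and Hist2h2ab) the exons not shared with another transcript held no 40-base window, and their counts of 0 to 4 in all were not read as low expression. Hist1h2aa, whose exons could be counted, had 0 counts in all 4 libraries. Hist1h2an had 2 and 2 counts against 18 and 17, Hist1h2ap 0 and 1 against 3 and 6, Hist1h2bp 0 and 1 against 1 and 6, and Hist1h2ba, a testis H2B, 0 and 1 against 1 and 1, which is too few for a fold. The 15 called members not described singly had log2 fold changes from 1.50 to 2.91, and the 11 other members that were tested and not called had values from 0.88 to 2.30, with both elderly libraries above both mature ones in 10.

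**Figure D5:**
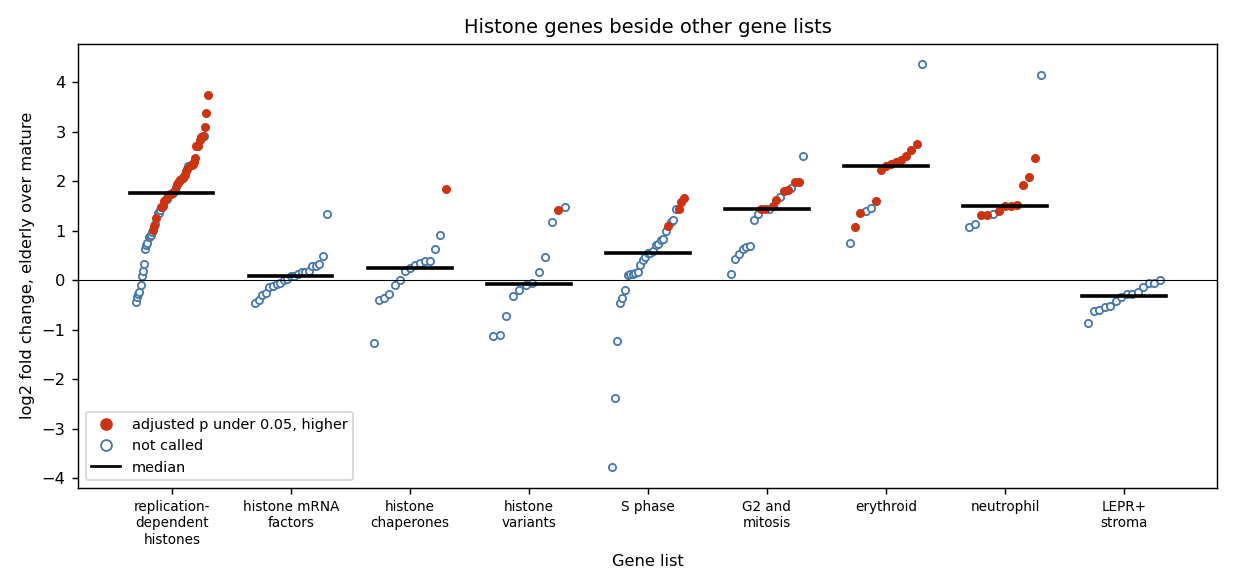
Log2 fold change, elderly over mature, of the 64 tested histone genes beside the genes of 8 lists, with filled points for genes with an adjusted p under 0.05 and a black line at each median. The medians of histone, G2 and mitosis, erythroid and neutrophil genes lie between 1.44 and 2.30, that of S phase genes at 0.55, and those of the histone mRNA factors, chaperones, variants and LEPR+ stromal markers between -0.32 and 0.24.

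Genes that make, process and handle histone mRNA and protein were set beside all genes tested, of which 2.28% were called higher and 0.45% lower. In lists this short, 0 or 1 call is near that share. Of 21 tested factors of histone mRNA transcription and processing, 0 were called by edgeR's test or DESeq2 (median log2 fold change 0.09), and 1 was higher at an unadjusted p under 0.05 by either. Slbp, which encodes the stem-loop binding protein, had 680 and 760 counts in mature against 568 and 595 in elderly libraries (-0.46 ± 0.22, adjusted p = 0.48), and Npat, the coactivator of histone genes at the start of S phase, 1203 and 1293 against 1231 and 1773 (0.09 ± 0.19). Both lie outside the rule for named genes and were picked as the best-known factors with their values in view. Of 15 histone chaperones 1 rose (median 0.24), namely Asf1b, an H3-H4 chaperone of dividing cells, with 46 and 42 counts against 162 and 189 (1.83 ± 0.32, adjusted p = 0.0080). Of 12 tested replication-independent histone variants, whose genes are normally polyadenylated, 1 rose (median -0.08). It was H2afx, the variant phosphorylated at DNA breaks, with 402 and 545 counts against 1420 and 1362 (1.42 ± 0.24, adjusted p = 0.0075), and it also carries the histone stem-loop. H3f3b, an H3.3 gene, had 590 and 930 against 851 and 686 (-0.10 ± 0.28).

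Some cell cycle genes rose as well. Of 29 S phase genes 4 rose (median 0.55), which were Mcm2, a subunit of the replicative helicase (549 and 343 counts against 1405 and 1251), the licensing factor Cdt1 (212 and 173 against 654 and 607) and the ribonucleotide reductase subunits Rrm1 (1223 and 949 against 2637 and 2438) and Rrm2 (236 and 120 against 677 and 545). Of 20 G2 and mitosis genes 8 rose and all 20 had positive log2 fold changes (median 1.44), and their summed level was 417 and 190 CPM in mature and 1123 and 822 CPM in elderly libraries. Mki67, the proliferation marker, had 2813 and 1108 counts against 7523 and 7503 (1.80 ± 0.34, adjusted p = 0.014). As for the histone classes other than H3, mature replicate 2 was the lowest library of this list. Of 4 nuclear noncoding RNAs tested, which include Malat1 and Neat1, 0 were called by edgeR's test or DESeq2 (median 0.07), with 0 and 1 lower at an unadjusted p under 0.05. The 11 other RNAs without a poly(A) tail that were listed had no match among the gene symbols used and were not analysed here.

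Erythroid and neutrophil markers were also higher in elderly libraries. Of 15 tested erythroid genes 11 rose (median log2 fold change 2.30), with a summed level of 486 and 226 CPM in mature and 1669 and 1495 CPM in elderly libraries. Of 13 tested neutrophil genes 9 rose (1.49), with 2235 and 1271 CPM against 4827 and 4713 CPM. Of 9 macrophage genes 5 rose (1.48; sums 4013 and 3604 against 2769 and 4294 CPM, which overlap), of 6 plasma cell genes 2 (0.60), of 11 B-lineage genes 1 (0.91; sums 771 and 681 against 515 and 607 CPM) and of 8 endothelial genes 1 (0.56). Most of the macrophage sum was Vcam1 (3490 and 3268 against 1953 and 3352 CPM), which is also on the stromal list. Most of the B-lineage sum was Ebf1 (728 and 647 against 416 and 541 CPM). Neither gene was called. Log2 fold changes were positive for 7 of 9 macrophage and 9 of 11 B-lineage genes, so these sums do not describe the lists as a whole. Of 7 T cell genes edgeR's test called 0 (2.22; 3 higher at an unadjusted p under 0.05, and 1 called by DESeq2) and of 7 megakaryocyte genes 0 (0.28; 0 at an unadjusted p under 0.05, and 0 by DESeq2). Of 14 LEPR+ stromal genes 0 were called by either tool (3 lower at an unadjusted p under 0.05 by edgeR's test) and none had a positive log2 fold change (median -0.32), with summed levels of 38550 and 38310 CPM against 24530 and 34190 CPM. Cd79b, Cd22, Irf4, Cd163 and Tek were at 0 in all libraries. S100a9 had 0 and 0 counts against 4 and 0, beside S100a8 with 8886 and 5653 against 19220 and 20902. Which exons could be counted was examined for the histone members alone. Counts of 0 or few for any listed gene, S phase genes included, were therefore not read as low expression. The part that these cells or their division had in the histone values was not tested.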

How the data were processed

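RNA of bone marrow cells was sequenced in 4 libraries, 2 from mature and 2 from elderly mice, and the groups were read from the sample titles. Per the labels, poly(A) RNA was isolated with magnetic beads and the library kit was directional. The authors trimmed reads with cutadapt, aligned them with HISAT2 to mm9 and used featureCounts for counting. What they deposited are raw counts per Ensembl transcript, and the settings for strand and for reads with several matches are not given in the sources used here. Totals were 11930137 and 11730849 counts in mature and 10472117 and 15650518 in elderly libraries. Transcripts were matched to GENCODE M1 (388 of 95883 unmatched, holding 0.0785% to 0.0888% of counts) and summed per gene symbol.

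Genes with more than 2 counts in all (21340) were tested with edgeR 4.0.16 (R 4.3.3, limma 3.58.1): TMM, trended dispersion, quasi-likelihood test, two-sided, age as the sole term, Benjamini-Hochberg adjustment over all genes, call at an adjusted p under 0.05. Log2 fold changes use a prior count of 0.125, and the biological coefficient of variation was 0.262. The study ran edgeR's exact test at a set dispersion of 0.2, which served as an alternative, beside DESeq2 1.42.0, other scalings and filters, transcripts in place of genes, the replicate number as a block and each library left out. No test was made on sums or lists. Replicates of 1 age differed beyond sampling noise (chi-square per degree of freedom 16.2 in mature and 34.6 in elderly). Nothing settles whether the libraries of 1 age shared mice or preparation, or whether each is 1 mouse or a pool. The p-values thus set the age difference against the spread between these libraries, as estimated in part from other genes. The statistics were tested on simulated counts.

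Named with counts from every library are the 3 most abundant members of each class by mean CPM, the highest and lowest change of each class at 1 CPM or more, all Hist3 and Hist4 genes and Hist1h3e. Further members are named to account for them, and 1 marker gene is not reported here. The genes, lists and tests were chosen with earlier results of these data known. Sequences come from the NCBI Build 37 genome, and promoter windows from RefSeq GRCm38.p6.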

Additional observations from a re-analysis of the deposited data

How the results depend on the processing

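The count of 35 members called higher stood beside 583 genes called in all. It stayed within 1.5 times under the following settings, while the calls in all moved as well. DESeq2 called 36 members (31 of the 35) and 709 in all, and the robust fit 36 (28 of the 35) and 908. Library size alone gave 36 and 657, and TMM without immunoglobulin, hemoglobin and histone genes 35 and 603. With filterByExpr these were 35 and 589, with no filter 46 and 1157, and with transcripts in place of genes 42 and 704. The count of members was 9 with the exact test at a dispersion of 0.2, beside 233 genes called in all. It was 21 when a log2 fold change over 2 was also required. Among members with at least 50% unique windows it was 14, an alternative chosen after seeing the data. Leaving out 1 library at a time gave 0 to 44 calls. All of these settings called 0 members lower. With the replicate block 47 members were called, including all 35, and 1262 genes in all. However, same-numbered libraries of the 2 ages did not deviate together (r = 0.04 over 14238 genes). The replicate numbers were therefore not taken to pair the samples. Without its most abundant gene, Hist3h2a, the log2 ratio of summed CPM was 1.76 for H2A and 2.93 for Hist3. With libraries left out in turn, the log2 ratio ranged from 0.93 to 1.67 for H4, 0.46 to 1.10 for Hist2, 0.28 to 0.46 for Hist3 and 0.53 to 1.23 for Hist4, and the 4 values outside the spread were those without mature replicate 1 (H4) or elderly replicate 1 (the 3 clusters). The direction of 3 genes that were not called changed with single libraries: Hist1h1t ranged from -0.42 to 0.47, with -0.22 without mature replicate 1, Hist1h2bc from -0.25 to 0.02 and Hist2h2aa2 from -1.08 to 0.03. The causes of these shifts were not tested. Over the 25 named members and all alternatives, 279 values kept their direction and side of the threshold, 54 lost a call, 13 gained one and 4 reversed. With 2 libraries of each age, age cannot be told apart from anything else that separated the libraries of the 2 ages. The 3 tested members with no unique 40-base window and the scarce members are limited by mapping and depth.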

Other observations

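Outside the histone clusters, 10 protein-coding genes held the stem-loop letters in the 120 bases after a stop codon, and 9 of them were tested. H2afx rose, and Tal1, an erythroid and stem cell transcription factor, had 35 and 8 counts in mature against 104 and 101 in elderly libraries, with a log2 fold change of 2.10 ± 0.53 that missed the threshold (adjusted p = 0.06 by edgeR's quasi-likelihood test). The other 7 (Arhgap28, Cdc40, Cntn2, Ipo13, Nlgn2, Rcan3 and Ttc14) had log2 fold changes from -0.53 to 0.13, and none was called. 1700014N06Rik had 0 counts in all libraries.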
